A study of Homo sapiens with 6 samples.

Results

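The 8 genes described here act in protein synthesis. They were EEF1A1, EEF1B2, EEF1D, EEF1G, EEF2, TPT1, EIF4A1 and EIF4A2, and all transcripts with a human Ensembl identifier that GENCODE assigns to these symbols were taken. They gave 73 of the 46484 human transcripts in the count matrices and 8 of the 12472 human genes that could be named. The selection rule used gene symbols only, and the genes were proposed with earlier results of these data known.

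The series asked how errors from PCR and sequencing in unique molecular identifiers (UMIs, random tags on captured RNA molecules) alter molecule counts. Its material was a mix of JJN3 (human) and 5TGMG1 (mouse, written 5TGM1 in the study's text), both labelled as myeloma lines, sequenced on nanopore instruments with no treatment other than the number of PCR cycles. The libraries with a matrix were 10X Chromium at 30 and at 35 cycles (2000 cells in the label of each, human and mouse cells mixed 50:50) and Drop-seq on the Nadia system at 25 cycles (1000 cells) and at 30 and 35 cycles (500 cells each, mixed 20:80). A last Drop-seq sample gave read numbers only and was not used. Each group was 1 library, so no difference below has a replicate check and none was tested. Intervals are at the 95% level and reflect counting error alone, and they treat counts as independent although a UMI can be counted on several transcripts.

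Barcodes were ordered by total count, the top ones up to the labelled cell number were kept, and those with at least 90% of counts on human transcripts were taken as human cells. The 10X libraries gave 1006 and 911 human cells at 30 and 35 cycles, with medians of 118 and 171 counts. Drop-seq gave 251, 166 and 165 human cells at 25, 30 and 35 cycles, with medians of 271, 243 and 352 counts. Human counts in these cells ranged from 67144 in Drop-seq at 30 cycles to 199308 in 10X at 35 cycles. The smallest stored value was 2 in 10X and 1, 3 and 3 in the Drop-seq libraries of 25, 30 and 35 cycles, so lower values are not known. For this reason a gene without counts is described as listed at 0, and no upper limit is given for it.

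Cells were shared between libraries and the human cells of the platforms differed in their markers. For both platforms the study's text describes a common amplified product that was divided before further PCR. For Chromium its main text gives lower total cycle numbers than the labels, while the cycles in its methods add up to those of the labels. The labels are used here. In 10X 722 barcodes were human cells in both libraries. The Drop-seq libraries at 30 and 35 cycles shared 145 human barcodes, and the 25-cycle library shared 135 and 133 with them. Values on the cycle numbers of a platform therefore describe in part the same cells. With values under 3 left out, 5 and 7 of 10 plasma cell genes were present in the human cells of 10X at 30 and 35 cycles (0.614% and 0.335% of human counts) and 0 of 15 T cell genes. In the Drop-seq libraries 1 plasma cell gene was present (MZB1, 0.00745% to 0.0187% of human counts) while SDC1 and JCHAIN were at 0. There 6 or 7 of the 15 T cell genes were present, CD3D, TRBC1 and CD1E among them, at 0.319% to 0.356%. The markers of the human cells labelled JJN3 thus changed with the platform. The study's text names JJN3 where cells were loaded on either platform, while its cell culture section, and a legend on Chromium cells, name Jurkat, a T cell line. Which human line each library held was not settled here, and in every comparison of Drop-seq with 10X the platform and the human cells captured cannot be told apart.

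Elongation begins when eEF1A, encoded by EEF1A1 in most tissues, carries an aminoacyl-tRNA to the ribosome and hydrolyses GTP. The eEF1B complex, made of the products of EEF1B2, EEF1D and EEF1G, reloads eEF1A with GTP, and eEF2 moves the ribosome along the mRNA. TPT1 encodes the translationally controlled tumour protein, an abundant small protein named for the translational control of its mRNA. EIF4A1 and EIF4A2 encode RNA helicases that open the leader of the mRNA during initiation. Many of these mRNAs are known as TOP mRNAs, which begin with a C and a run of pyrimidines and whose translation depends on mTOR signalling.

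The windows around their transcription start sites are shown because they hold a feature the selection did not use. RefSeq (GRCh38.p14) had 8 windows for 7 of the 8 genes. EEF1D had no entry. Each window holds 10 bases before the annotated start and 15 from it, read on the transcribed strand, with a run of at least 7 C or T bases in capitals.
EEF1A1, chr6:73521018-73521042, minus strand: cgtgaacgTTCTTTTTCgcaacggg
EEF2, chr19:3985449-3985473, minus strand: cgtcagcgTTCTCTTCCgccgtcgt
TPT1, chr13:45341169-45341193, minus strand: ctgagtcggCCTTTTCCgcccgctc
EEF1B2, downstream start, chr2:206159885-206159909, plus strand: ctcttcgggTCCTTTTTCCTCTCTT
EEF1B2, upstream start, chr2:206159599-206159623, plus strand: aagtggccccagcctcgaggccggg
EEF1G, chr11:62573877-62573901, minus strand: cgggcggcttactttgcggcagcgc
EIF4A1, chr17:7572815-7572839, plus strand: ggcactccgccctagtttctaagga
EIF4A2, chr3:186783567-186783591, plus strand: gcgccgctgTCTTTTCagtcgggcg
The run was present in 5 of the 7 genes, EEF1A1, EEF2, TPT1, EIF4A2 and EEF1B2 at its downstream start. Of all 35116 RefSeq promoters, 16.6% held such a run in the same window. The minimum of 7 was chosen after these sequences were seen, and the match describes the letters only.

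Reads of close relatives had to be told apart before the counts could be read by gene. The ends of the coding sequence at which each pair lines up without a gap are shown for this reason, from GENCODE release 44 on GRCh38, with the bases that differ within a pair in capitals.
EEF1A1, first 60 coding bases, chr6:73519967-73520026, minus strand: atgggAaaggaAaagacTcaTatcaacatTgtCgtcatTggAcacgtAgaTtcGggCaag
EEF1A2, first 60 coding bases, chr20:63497704-63497763, minus strand: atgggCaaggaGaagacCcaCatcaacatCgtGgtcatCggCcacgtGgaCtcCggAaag
EIF4A1, last 60 coding bases before the stop, chr17:7578424-7578483, plus strand: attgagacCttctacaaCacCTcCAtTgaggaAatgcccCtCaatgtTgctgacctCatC
EIF4A2, last 60 coding bases before the stop, chr3:186789207-186789266, plus strand: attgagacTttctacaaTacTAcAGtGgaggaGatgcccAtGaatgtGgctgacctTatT
Of 60 bases, 12 differed between EEF1A1 and EEF1A2 and 13 between EIF4A1 and EIF4A2. The longest stretch that either pair shared over its whole coding sequence was 20 bases. EEF1A2, the paralog known from muscle and neurons, had no counts in the human cells of any library. EIF4A3, a relative of the EIF4A genes that belongs to the exon junction complex, had 19, 0, 8, 14 and 12 counts in the libraries ordered as 10X at 30 and 35 cycles, then Drop-seq at 25, 30 and 35 cycles. Processed pseudogenes, which are common for these abundant mRNAs, were nearly empty. GENCODE names 106 under the symbols of the 8 genes, 6 of them were in the matrices, and together they had 4, 2, 1, 0 and 0 counts in the same order.

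EEF1A1 (ENSG00000156508, minus strand of chromosome 6, 73489308 to 73525587) had a higher share of human counts in 10X than in Drop-seq. In 10X it had 3353 counts at 30 cycles, which was 2.07% (2.0% to 2.14%) of human counts, and 5187 counts at 35 cycles, 2.60% (2.53% to 2.67%). In Drop-seq the 875 counts of the 25-cycle library were 0.759% (0.710% to 0.811%), the 705 of the 30-cycle library 1.05% (0.974% to 1.13%) and the 958 of the 35-cycle library 1.02% (0.961% to 1.09%). The intervals of both 10X libraries lay above those of the 3 Drop-seq libraries. Among the Drop-seq libraries the intervals at 30 and 35 cycles overlapped, and the 25-cycle value lay below both. With all 8 genes summed the shares were 2.23%, 2.85%, 1.40%, 1.5% and 1.49%. With only the largest transcript counted for each gene and cell they were 0.947% and 1.20% in 10X and 0.960%, 0.885% and 0.949% in Drop-seq. These are stored values, whose smallest differed between the libraries. With values under 3 left out, the shares by largest transcript at 30 cycles were 1.20% in 10X and 0.885% in Drop-seq.

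**Figure D1:**
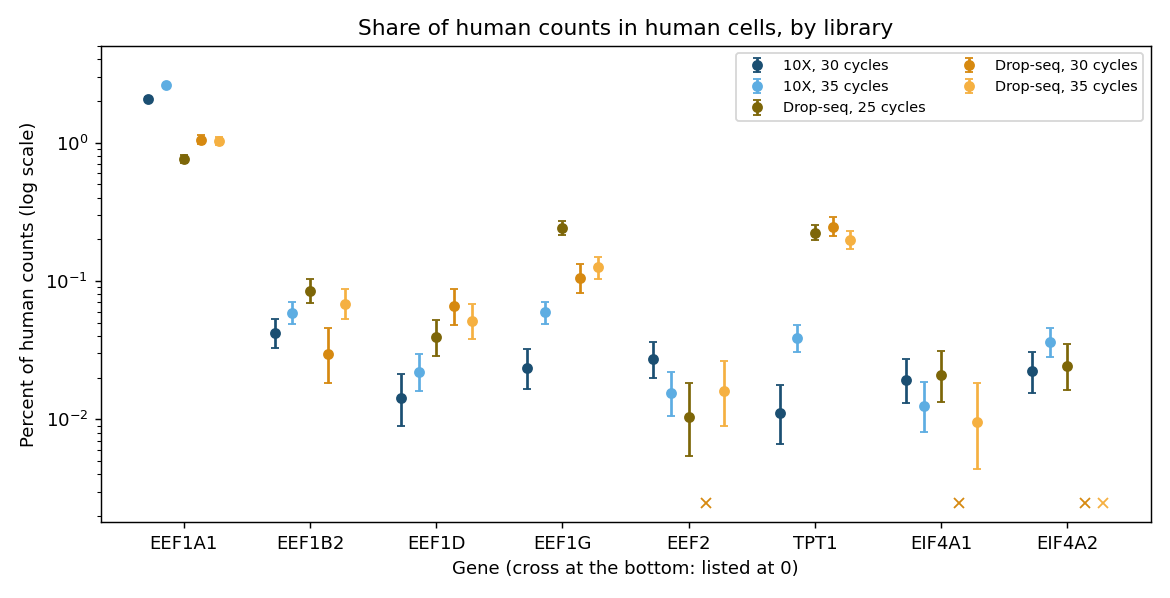
Share of human counts in human cells (percent, log scale) for each gene, with 1 point per library in the order of the legend, bars for the 95% counting interval and crosses for genes listed at 0. EEF1A1 lies at 0.759% to 2.60% and is higher in 10X, and EEF1G and TPT1 lie higher in Drop-seq than in 10X.

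Of the genes of the exchange complex, EEF1D and EEF1G had higher shares in Drop-seq than in 10X, and EEF1B2 did not separate by platform. EEF1B2 (ENSG00000114942, chromosome 2, 206159585 to 206162928), which encodes a subunit with exchange activity, had 68 and 117 counts in 10X and 98, 20 and 64 in Drop-seq, each in order of cycle number. Its lowest share was 0.0298% in Drop-seq at 30 cycles, where 2 cells carried all 20 counts, and its highest 0.0850% in Drop-seq at 25 cycles. EEF1D (ENSG00000104529, chromosome 8, 143579697 to 143599541), the other subunit with exchange activity, had 23 and 44 counts in 10X and 45, 44 and 48 in Drop-seq. Its shares of 0.0142% and 0.0221% in 10X lay below the Drop-seq range of 0.0390% to 0.0655%, although the intervals of 10X at 35 cycles and Drop-seq at 25 cycles overlapped. EEF1G (ENSG00000254772, chromosome 11, 62559596 to 62574086), the structural subunit, had 38 and 118 counts in 10X and 279, 70 and 117 in Drop-seq. Its shares were 0.0235% and 0.0592% in 10X and 0.242%, 0.104% and 0.125% in Drop-seq. A single cell held 99 of the 279 counts of EEF1G at 25 cycles, which was 38.1% of all human counts of that cell.

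EEF2 (ENSG00000167658, chromosome 19, 3976056 to 3985463), the translocation factor, had 44 and 31 counts in 10X (0.0272% and 0.0156%) and 12, 0 and 15 counts in Drop-seq (0.0104%, listed at 0, and 0.0160%). The intervals of the 10X libraries overlapped, at 0.0197% to 0.0365% and 0.0106% to 0.0221%. The interval of the log2 ratio of these 10X shares excluded 0 (-0.80, -1.52 to -0.11). TPT1 (ENSG00000133112, chromosome 13, 45333471 to 45341284) had higher shares in Drop-seq than in 10X, with 18 and 77 counts in 10X (0.0111% and 0.0386%) and 257, 166 and 185 counts in Drop-seq (0.223%, 0.247% and 0.198%). The intervals of its 3 Drop-seq shares overlapped each other and lay above both 10X intervals. The log2 ratio of its Drop-seq shares at 35 over 30 cycles was -0.32 (-0.63 to -0.01).

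The helicase genes had few counts anywhere. EIF4A1 (ENSG00000161960, chromosome 17, 7572824 to 7579006) had 31 and 25 counts in 10X and 24, 0 and 9 in Drop-seq. EIF4A2 (ENSG00000156976, chromosome 3, 186783205 to 186789897) had 36 and 72 counts in 10X and 28, 0 and 0 in Drop-seq. Their highest shares were 0.0208% for EIF4A1 in Drop-seq at 25 cycles and 0.0361% for EIF4A2 in 10X at 35 cycles. The value for EIF4A1 cannot be told apart from background, as given below.

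To set the genes in order, levels were taken per kilobase, from the mean transcript length weighted by counts. The counts are of UMIs, not of bases, and the order by share of human counts alone differs for some genes. In Drop-seq at 25 cycles TPT1 held 0.223% of human counts and EEF1B2 0.0850%, the reverse of their order per kilobase. The weighted length also varied by library, for TPT1 from 3.84 kb in 10X at 30 cycles to 2.70 kb in Drop-seq at 30 cycles. EEF1A1 came first in each library, at 0.627% and 0.798% of human counts per kilobase in 10X and 0.230%, 0.323% and 0.315% in Drop-seq. In 10X at 30 cycles EEF1B2 followed at 0.0494% and TPT1 came last at 0.00289%. The genes between them, EIF4A1, EEF1D, EEF1G, EEF2 and EIF4A2, lay at 0.00923% to 0.0125% per kilobase with intervals that all overlapped. In Drop-seq at 25 cycles EEF1G (0.123%) and EEF1B2 (0.101%) followed EEF1A1 with overlapping intervals, then TPT1 (0.0763%), whose interval overlapped that of EEF1B2. In Drop-seq at 35 cycles EEF1B2, TPT1 and EEF1G lay at 0.0813%, 0.0723% and 0.0636% with overlapping intervals. Per kilobase, TPT1 was below all 3 exchange factor genes in both 10X libraries and above at least 1 of them in each Drop-seq library. At 35 cycles in 10X the per-kilobase intervals of TPT1 and EEF1D overlapped. By share of human counts TPT1 (0.0386%) was above EEF1D (0.0221%) in that library.

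The counts of EEF1A1 were spread over transcripts that share most of their sequence. The 3 transcripts with most counts were ENST00000309268 (3512 bases), ENST00000316292 (4441 bases) and ENST00000331523 (2048 bases), all protein coding. They had 872, 872 and 862 counts in 10X at 30 cycles and 1299, 1290 and 1290 at 35 cycles. The counts of the first and second were equal in 340 of the 356 10X cells (95.5%) with either of them at 30 cycles, and in 440 of 471 (93.4%) at 35. In Drop-seq they were equal in 46 of 58, 17 of 28 and 22 of 35 cells. The longest stretch of ENST00000309268 found in ENST00000316292 is 3482 bases, and in ENST00000331523 it is 1716 bases. A human cell with EEF1A1 had counts on 3.85 to 4.88 of its transcripts on average, by library. The sum over transcripts was 3.77 to 4.25 times the count of the largest transcript of each cell. With only that largest transcript counted for each gene and cell, EEF1A1 held 0.807% and 1.02% of human counts in 10X and 0.382%, 0.523% and 0.528% in Drop-seq.

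An EEF1A1 transcript differed in share between the platforms and others did not separate them. ENST00000610520 (3503 bases, protein coding) held 0.6% and 1.4% of EEF1A1 counts in 10X, from 20 and 74 counts, and 10.6%, 11.5% and 11.8% in Drop-seq, from 93, 81 and 113 counts. The retained-intron transcript ENST00000490569 held 7.6% and 10.6% in 10X and 8.6%, 11.8% and 12% in Drop-seq. ENST00000615060 (3694 bases, protein coding) held 14% and 13.1% in 10X and 12.6%, 10.5% and 10.4% in Drop-seq. For both of these the intervals of some 10X and Drop-seq libraries overlapped. These 3 transcripts were named after their values were seen.

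**Figure D2:**
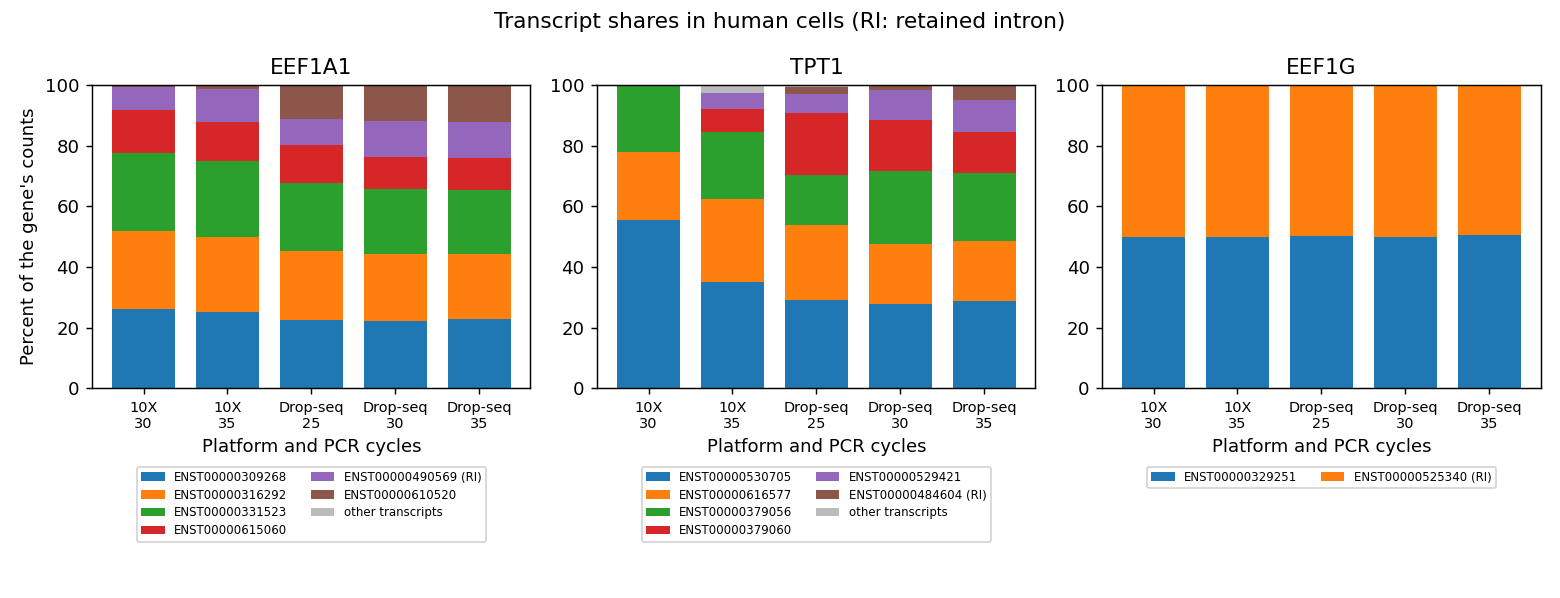
Percent of each gene's counts in human cells by transcript, as stacked bars per library for EEF1A1, TPT1 and EEF1G. The 3 largest EEF1A1 transcripts take similar shares within each library, ENST00000610520 takes 10.6% to 11.8% in Drop-seq against 0.6% and 1.4% in 10X, and the EEF1G bars are split at 50.0% to 50.4% for the coding transcript.

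EEF1G showed the same doubling in its simplest form. Only 2 transcripts were listed, the coding ENST00000329251 (1446 bases) and the retained-intron ENST00000525340 (2496 bases), which share a stretch of 1379 bases. Their counts were 19 and 19 in 10X at 30 cycles and 59 and 59 at 35 cycles. In Drop-seq they were 140 and 139, then 35 and 35, then 59 and 58. They were equal in all 9 and all 28 cells of the 10X libraries, in 26 of 27, 6 of 6 and 10 of 11 in Drop-seq. The retained-intron counts of EEF1G cannot be told apart from those of its coding transcript.

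For the other genes the number of transcripts per cell varied. EEF2 was counted nearly always on ENST00000309311 (3158 bases), with 39 of 44 and 29 of 31 counts in 10X and all 12 and 15 counts in Drop-seq at 25 and 35 cycles. EEF1B2 counts fell on ENST00000392222 and ENST00000392221, which took 47.1% to 53.1% and 42.7% to 50.0% of them by library. EEF1D counts were divided between ENST00000529272 and ENST00000395119 at 36.4% to 50.0% and 34.8% to 52.1%. TPT1 had 1.5 and 2.85 transcripts per cell in 10X and 3.38 to 4.18 in Drop-seq. Its long transcripts ENST00000530705 (4548 bases) and ENST00000616577 (4814 bases) held 55.6% and 22.2% of 18 counts in the 30-cycle 10X library, 35.1% and 27.3% of 77 in the 35-cycle one, and 27.7% to 29.2% and 19.9% to 24.5% in Drop-seq. Its shorter transcripts ENST00000379056 (1101 bases) and ENST00000379060 (764 bases) held 16.7% to 24.1% and 13.5% to 20.2% in Drop-seq. In EIF4A1 the single-exon retained-intron transcript ENST00000584798, named after its values were seen, had 10 counts from 5 cells in each 10X library (32.3% and 40.0% of the gene) and no counts in Drop-seq cells. In EIF4A2 the transcripts annotated for nonsense-mediated decay held 16 of 36 and 28 of 72 counts in 10X and 12 of 28 in Drop-seq at 25 cycles. One of them, ENST00000425053, shares 1113 bases with the coding ENST00000323963.

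EEF1A1 was listed in a minority of the human cells of most libraries. In 10X 358 of 1006 cells at 30 cycles (35.6%, 32.6% to 38.6%) and 473 of 911 at 35 cycles (51.9%, 48.6% to 55.2%) had it. In Drop-seq 58 of 251 cells (23.1%), 28 of 166 (16.9%) and 37 of 165 (22.4%) did. In mouse cells, which lack the human gene, it was listed in 4 of 806 and 4 of 881 cells of 10X (0.496% and 0.454%), where the median depth of 117 and 171 counts was close to that of human cells. In Drop-seq it was listed in 17 of 590 (2.88%), 2 of 291 and 1 of 309 mouse cells, at medians of 282.5, 278 and 417 counts. The shares in human cells were far above these. Drawing 100 counts from each cell with at least 100 gave 41.5% of 654 cells and 50.8% of 911 cells in 10X, and 18.5%, 16.4% and 20.7% in Drop-seq. Before drawing, the same cells gave 42.7%, 51.9%, 23.1%, 16.9% and 22.4%. At 200 counts the values were 59.8% of 206 cells, 68.9% of 324, 25.0% of 166, 20.1% of 109 and 22.7% of 146, so both 10X libraries lay above the Drop-seq libraries at each of these depths. The storage minimum was not applied again after drawing. These shares used stored values, whose smallest differed between libraries. With values under 3 left out of every library, 120 of 1006 (11.9%) and 213 of 911 (23.4%) 10X cells had EEF1A1. Drop-seq then gave 23 of 251 (9.16%), 28 of 166 (16.9%) and 37 of 165 (22.4%), so at 30 cycles 10X was lower. Among cells still with 100 counts, drawing gave 42.0% of 97 and 46.1% of 253 in 10X. The Drop-seq values were 10.7% of 179, 16.4% of 166 and 20.7% of 165.

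Within a library, the cells with EEF1A1 were the deeper ones. Their median was 149 human counts against 108 for cells without it in the first 10X library, 193 against 153.5 in the second, and 396 against 232, 374.5 against 229.5 and 504 against 328 in Drop-seq. In the deeper 503 cells of 10X at 30 cycles 45.7% had EEF1A1, and in the shallower 503 cells 25.4%. The share of counts differed little between these sets of cells, at 2.0% and 2.24%. The counts came in steps. In 10X at 30 cycles 69.4% of the EEF1A1 entries had the smallest stored value of 2, and 80 and 143 of the 358 cells with the gene had exactly 6 and 8 counts. At 35 cycles 60.1% of entries had the value 2, and 68 and 180 of 473 cells had 6 and 8 counts. Totals of 6 and 8 are what 3 and 4 transcripts at the value 2 add up to. The highest count in a cell was 33 and 48 in 10X and 80, 67 and 104 in Drop-seq.

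**Figure D3:**
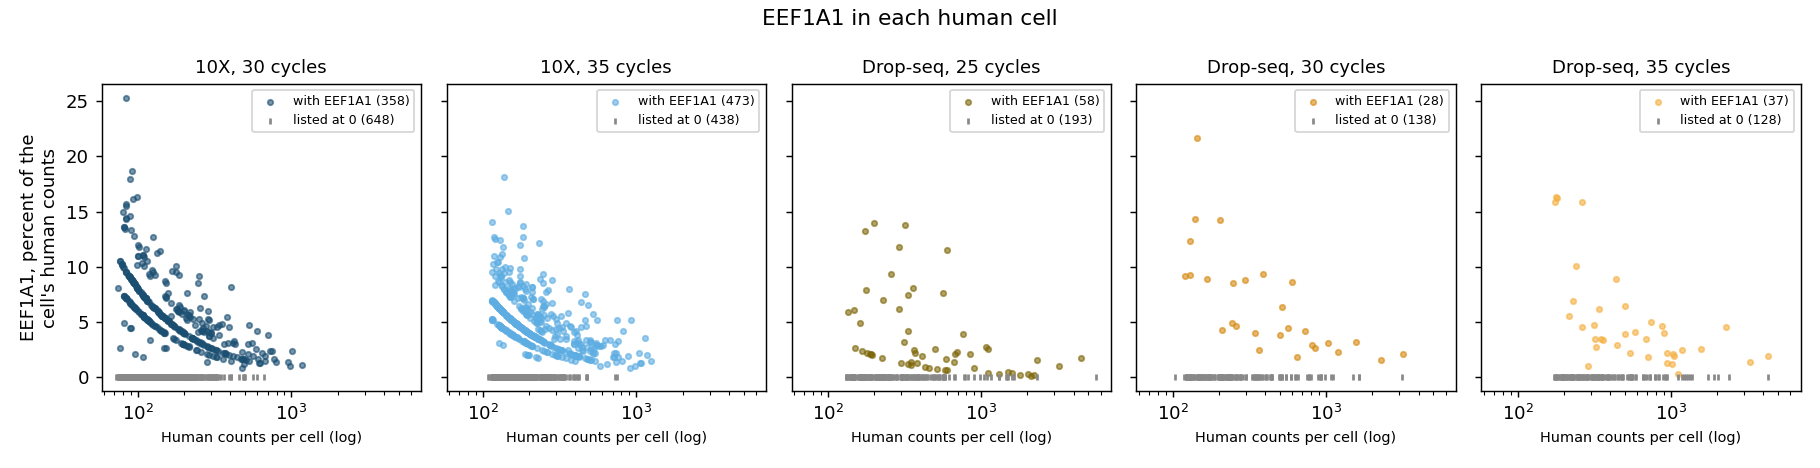
EEF1A1 as percent of a cell's human counts (vertical axis) against the human counts of the cell (horizontal axis, log scale) for every human cell of the 5 libraries, with grey marks for cells in which the gene was listed at 0. The 10X points fall on curves of equal count, where 80 and 143 cells at 30 cycles have 6 and 8 counts. In Drop-seq 2 and 6 cells at 25 cycles and 0 cells at 30 and 35 cycles have these totals. At 30 and 35 cycles the smallest stored value was 3 and cells with EEF1A1 had 4.61 and 4.41 of its transcripts on average. Totals of 6 or 8 were therefore rarely possible there.

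The other genes were found in few cells. TPT1 was listed in 6 and 13 human cells of 10X and in 11, 8 and 8 of Drop-seq, and the median of its counts in those cells was 3 and 6 in 10X and 12, 16.5 and 13 in Drop-seq. In Drop-seq the 5 cells with most TPT1 held 77.4%, 81.9% and 90.8% of its counts. EEF1G was listed in 9 and 28 cells of 10X and 27, 6 and 11 of Drop-seq, with 59.9%, 91.4% and 60.7% of the Drop-seq counts in 5 cells. EEF1A1 was less concentrated, with 31.2% to 34.5% in 5 cells of Drop-seq and 3.80% to 4.0% in 10X. EEF2 was listed in 19, 14, 9, 0 and 4 human cells in the order used above, EEF1B2 in 18, 30, 19, 2 and 7, EEF1D in 7, 11, 6, 4 and 4, EIF4A1 in 8, 8, 5, 0 and 1, and EIF4A2 in 7, 12, 3, 0 and 0. At 25 cycles EIF4A1 was listed in 1.99% of human cells (5 of 251) and 1.53% of mouse cells (9 of 590). These intervals overlapped, so its counts in human cells there cannot be told apart from background. Intervals of human and mouse cells also overlapped for other genes with few cells. Examples are EEF1D in Drop-seq at 25 cycles (6 of 251 and 3 of 590) and EEF1G in 10X at 30 cycles (9 of 1006 and 1 of 806). Background cannot be told apart in such cases, while the intervals of EEF1A1 were separate in every library. Of the human cells 617 of 1006, 402 of 911, 138 of 251, 122 of 166 and 104 of 165 had none of the 8 genes. At most 5 of the 8 were listed in the same cell.

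Shared barcodes showed whether a gene was listed again in the same cell. Of the 722 human barcodes shared by the 10X libraries, 280 had EEF1A1 at 30 cycles and 387 at 35 cycles, and 188 had it in both, which was 67.1% of the first and 48.6% of the second. Where it was in both, the count was higher at 35 cycles in 99, lower in 50 and equal in 39. Of the 145 shared by Drop-seq at 30 and 35 cycles, 26 and 34 had EEF1A1 and 25 had it in both (96.2% and 73.5%), higher at 35 cycles in 16, lower in 7 and equal in 2. TPT1 was in 6 and 8 of these 145 and in both in 6. In the 10X pair TPT1 was in 5 and 9 of the 722 and in both in 0. EEF1G was in 8 and 25 of the 722 and in both in 1, against 6 and 10 of the 145 and both in 5. EEF1A1, EEF1G and TPT1 were therefore listed again in the same barcodes more often in the Drop-seq pair than in the 10X pair, a difference without a test in 1 pair per platform. Of barcodes with EEF1B2 at 30 cycles, 2 of 17 in 10X and 2 of 2 in Drop-seq had it again, and with EEF1D 1 of 6 and 3 of 4. EEF2, EIF4A1 and EIF4A2 were listed at 0 in Drop-seq at 30 cycles. Relisting was not counted over all genes, so it is not shown to be particular to these. In cells with EEF1A1 its median count was 8 in both 10X libraries and 23 and 21 in Drop-seq at 30 and 35 cycles. Of its entries 69.4% and 60.1% in 10X and 29.5% and 30.1% in Drop-seq had the smallest stored value. Whether the difference in relisting follows from this distance to the storage minimum was not tested. Stored barcodes had 10 bases in every matrix, so different cells can share one.

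**Figure D4:**
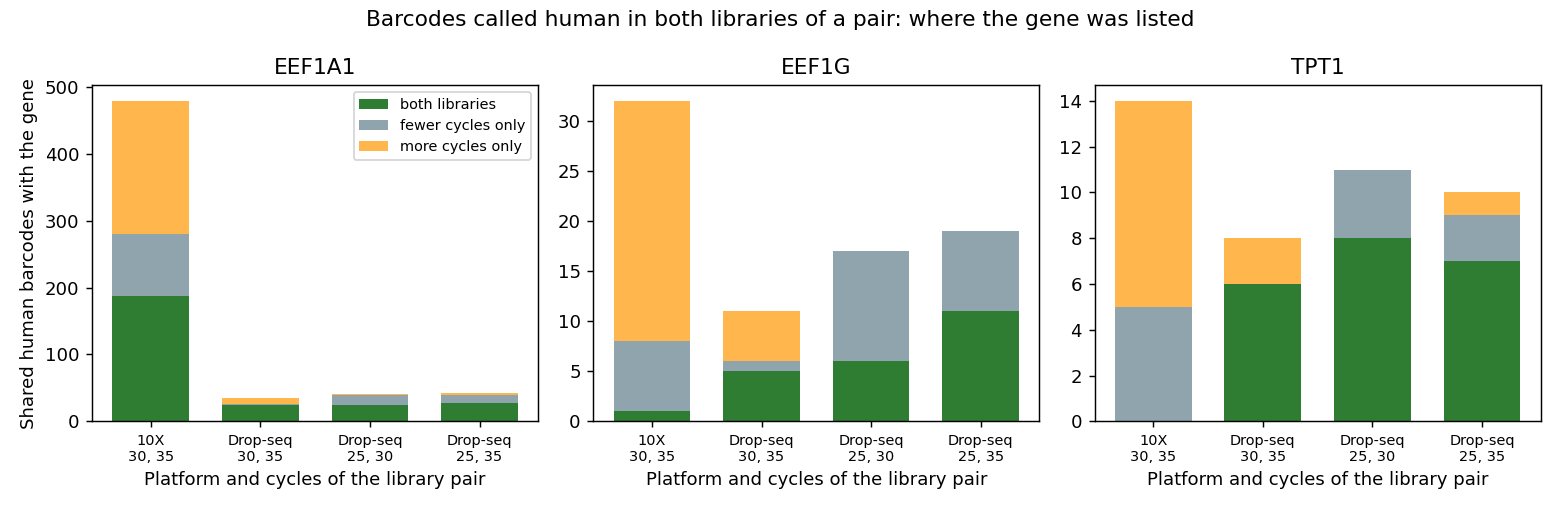
Number of barcodes called human in both libraries of a pair in which a gene was listed, stacked as both libraries, only the library with fewer cycles and only that with more, for EEF1A1, EEF1G and TPT1 (each panel has its own vertical scale from 0). In Drop-seq at 30 and 35 cycles 25 barcodes had EEF1A1 in both libraries, and TPT1 was in both libraries for 6 barcodes in Drop-seq and 0 in 10X.

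The first comparison set 10X at 35 cycles against 10X at 30 cycles. The 35-cycle library was also deeper, with 740994 total counts against 494147, so cycles and depth cannot be told apart here. The 8 genes together went from 2.23% to 2.85% of human counts, a log2 ratio of 0.35 (0.29 to 0.41), while the median of the 391 human genes with at least 100 counts over both libraries was -0.19. EEF1A1 went from 3353 to 5187 counts (log2 ratio 0.33, 0.27 to 0.39), EEF1B2 from 68 to 117 (0.48, 0.04 to 0.94) and EIF4A2 from 36 to 72 (0.69, 0.10 to 1.32). EEF1G went from 38 to 118 counts, a ratio of 1.32 (0.80 to 1.90). Of the 4 genes with at least 100 counts, EEF1G was at least 2-fold higher and none was 2-fold lower, beside 30.2% of all genes tested that were 2-fold apart, 10.2% higher and 19.9% lower. The median of the 4 was 0.58. The other 4 genes had under 100 counts. TPT1 went from 18 to 77 (1.77, 1.04 to 2.63, or 0.90 with the largest transcript per cell), EEF1D from 23 to 44 (0.62, -0.12 to 1.43), EEF2 from 44 to 31 (-0.80, -1.52 to -0.11) and EIF4A1 from 31 to 25 (-0.60, -1.43 to 0.20). With values under 3 left out, the summed ratio was 0.18 (0.09 to 0.27), and EEF1G had 6 and 18 counts and a ratio of 0.69, under 2-fold. By median-of-ratios scaling, which sets the median gene near 0, it was 0.54, and 57 genes were 2-fold higher and 55 lower in place of 40 and 78.

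On Drop-seq the interval of the summed ratio included 0 for the same step. There too the 35-cycle library was deeper, with 827152 total counts against 528502. The 8 genes together held 1.5% at 30 cycles and 1.49% at 35 cycles (log2 ratio -0.0036, -0.12 to 0.11), with a median over 304 genes of -0.05. EEF1A1 went from 705 to 958 counts (-0.04, -0.18 to 0.11), EEF1G from 70 to 117 (0.26, -0.18 to 0.71) and TPT1 from 166 to 185 (-0.32, -0.63 to -0.01). None of these 3 genes with at least 100 counts was 2-fold apart, beside 1.97% of all genes tested (0.987% higher and 0.987% lower), and their median was -0.04. Under 100 counts, EEF1B2 went from 20 to 64 counts (1.18, 0.46 to 2.0) and EEF1D from 44 to 48 (-0.35, -0.97 to 0.27). EEF2 and EIF4A1 were listed at 0 at 30 cycles and had 15 and 9 counts at 35 cycles, so no ratio was formed. Without the 5 deepest human cells of each library the summed ratio was -0.13.

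Drop-seq was compared with 10X at 30 cycles after values under 3 were left out of both. The 8 genes together were lower in Drop-seq, at 1.5% against 3.07% of human counts (log2 ratio -1.04, -1.16 to -0.92), although the median of the 145 genes tested was 2.59. EEF1A1 had 705 counts in Drop-seq and 1441 in 10X, a ratio of -1.51 (-1.65 to -1.38). TPT1 had 166 counts in Drop-seq and was listed at 0 in 10X, where its 18 stored counts were all values under 3. These were the 2 genes with at least 100 counts, beside 90.3% of all genes tested that were 2-fold apart, 60.7% higher and 29.7% lower, so a 2-fold difference was common among all genes. EEF1G had 70 counts against 6 (2.96, 1.87 to 4.56), EEF1B2 20 against 12 (0.23, -0.85 to 1.42) and EEF1D 44 against 3. With values as stored the summed ratio was -0.57, and with the largest transcript per cell -0.44. The plasma cell and T cell markers given above moved with this comparison in full.

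Between Drop-seq at 25 and 30 cycles, again with values under 3 left out, the summed share was 1.52% and 1.5% (log2 ratio -0.02, -0.14 to 0.10), beside a median of -0.21 over 272 genes. EEF1A1 went from 638 to 705 counts (0.40, 0.25 to 0.56), TPT1 from 236 to 166 (-0.25, -0.54 to 0.04) and EEF1G from 233 to 70 (-1.47, -1.88 to -1.08). EEF1G was the 1 gene of 3 with at least 100 counts that was 2-fold apart, beside 20.2% of all genes tested, 6.25% higher and 14% lower. The cell that held 99 counts of EEF1G was part of the 25-cycle value. On the 135 human barcodes shared by both libraries, with stored values, EEF1G held 0.143% at 25 cycles and 0.118% at 30 cycles, and TPT1 0.287% and 0.280%. The sign for TPT1 changed with values as stored (0.15) and at a purity of 95% (1.04, from 37 and 166 counts). EEF1A1 held 0.736% and 1.09% on the shared barcodes, and its count was higher at 30 cycles in 18 of the 24 barcodes with the gene in both. EEF1G was listed in 17 of the shared barcodes at 25 cycles and in 6 at 30 cycles. In the 6 with it in both, its count was higher at 30 cycles in 5 and lower in 1. TPT1 was higher in 4 and lower in 4. The labels also differ in the nanopore kit, and total counts were 2311090 at 25 cycles and 528502 at 30 cycles. Cycles, kit and depth therefore cannot be told apart here.

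**Figure D5:**
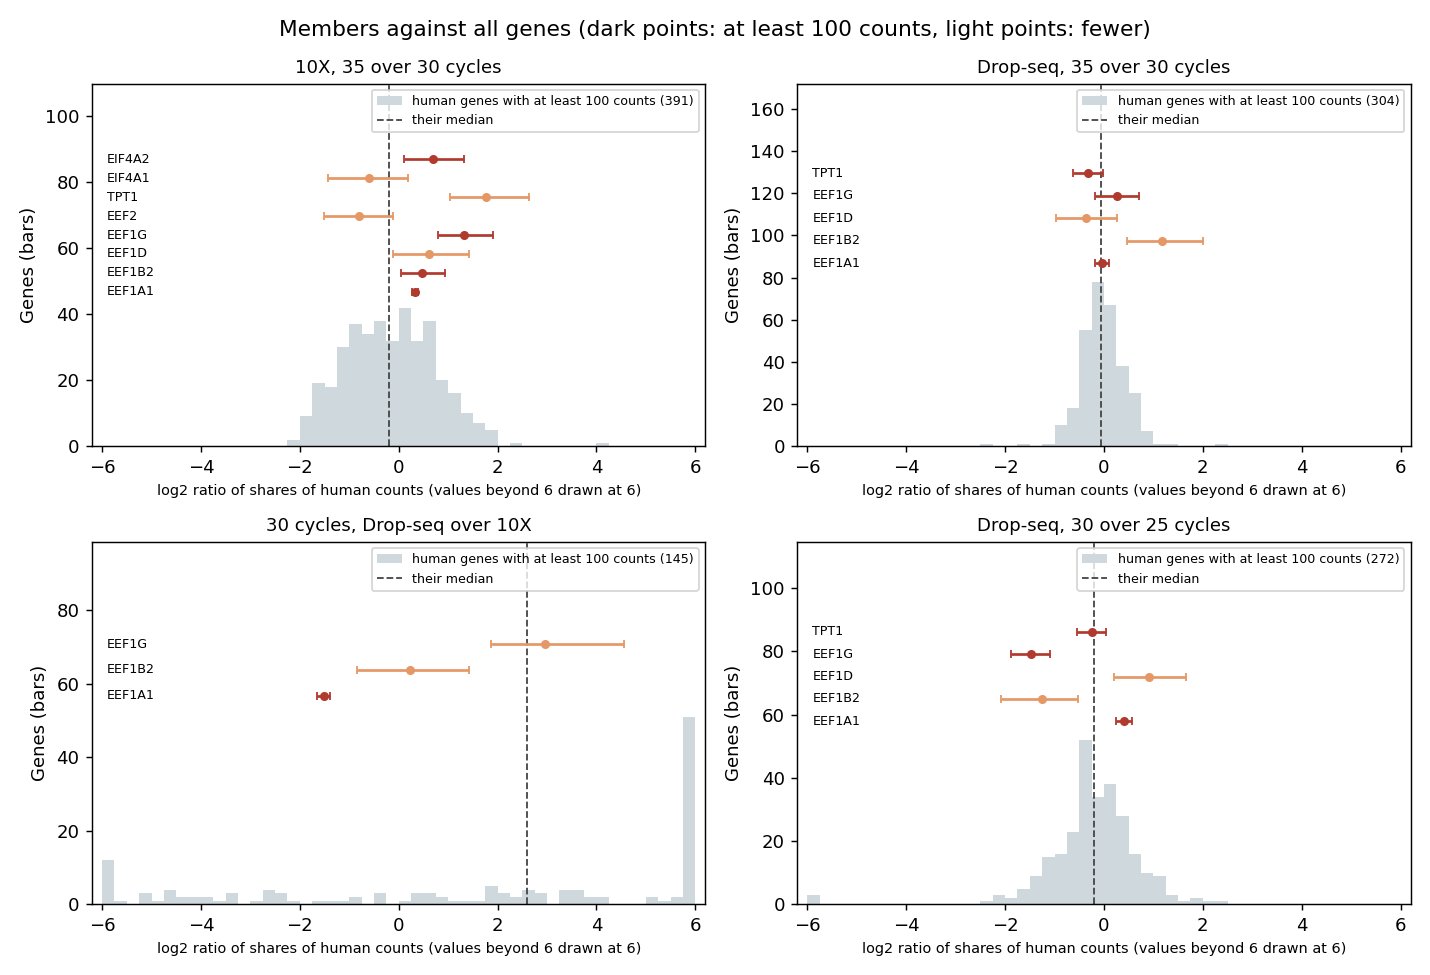
Log2 ratios of the members (points with 95% counting intervals, dark with at least 100 counts and light with fewer, stacked in rows for legibility) above the distribution of all human genes with at least 100 counts (bars, number of genes, with their median as a dashed line) in the 4 comparisons. At 35 over 30 cycles in Drop-seq the distribution is narrow and EEF1A1 lies at -0.04, while in Drop-seq over 10X the median of all genes is 2.59 and EEF1A1 lies at -1.51.

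Other translation factors were taken from a list of 66 genes. Together they held 0.823% and 0.673% of human counts in 10X and 1.05%, 0.983% and 1.08% in Drop-seq. In 10X at 35 over 30 cycles 8 had at least 100 counts, and 1 was at least 2-fold higher and 3 lower, with a median of -0.49. EIF3A, the scaffold of the eIF3 complex, went from 63 to 225 counts (log2 ratio 1.53, 1.13 to 1.96). EIF2S3, the gamma subunit of eIF2, went from 230 to 100 (-1.50), EIF4B, a cofactor of the eIF4A helicases, from 110 to 48 (-1.49), and EIF4E, the cap-binding protein, from 180 to 102 (-1.12). The list thus held factors on both sides, and 2 of the 8 had ratios above 0, against 172 of all 391 genes. In Drop-seq at 35 over 30 cycles 5 were tested and 0 were 2-fold apart, with a median of -0.06. EIF1, which keeps the scanning ribosome selective for the start codon, had 150 and 200 counts and PABPC1, the cytoplasmic poly(A)-binding protein, 94 and 115. Against 10X at 30 cycles, with values under 3 left out, EIF1 and PABPC1 were the 2 with at least 100 counts. They had 150 and 94 counts in Drop-seq and 15 and 6 in 10X, ratios of 2.80 and 3.38. These lay near the median of 2.59 over all genes, of which 60.7% were 2-fold higher. Under 100 counts, listed genes lay on both sides. EIF2S3 and EIF4E had 0 counts in Drop-seq and 88 and 50 in 10X, and EIF2S2 had 48 and 0. Between 25 and 30 cycles 3 were tested, with a median of -0.67 against -0.21 over all genes. EIF1 went from 286 to 150 counts (-0.67, -0.97 to -0.38), EIF3K, an eIF3 subunit, from 97 to 41 (-0.97, -1.55 to -0.44) and PABPC1 from 55 to 94 (1.03, 0.54 to 1.54), the last 2-fold higher beside 6.25% of all genes.

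The genes whose levels over the 5 libraries were most like those of EEF1A1 came from a small pool, since 12 human genes had at least 100 counts in every library with values under 3 left out. By Euclidean distance between log2 shares centred on each gene's mean, the nearest were MT-CO2 (0.78), MT-CYB (1.05) and RPL6 (1.09). EEF1A1 held 3.0% and 3.38% in 10X and 0.794%, 1.05% and 1.02% in Drop-seq on this scale, and MT-CO2 1.44%, 1.32%, 0.345%, 0.301% and 0.261%. RPL6, a protein of the large ribosomal subunit, held 1.26%, 1.28%, 0.249%, 0.191% and 0.204%. All of these were higher in 10X, with 5 libraries that share cells within a platform. For EEF2 and TPT1 no such list was made, as both were listed at 0 in at least 1 library.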

How the data were processed

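Matrices of nanopore single-cell RNA sequencing were used from 5 of 6 samples. The deposited values were raw UMI counts of transcripts in each barcode, not normalized by the authors. The methods name Guppy for base calling, and minimap2 for mapping to both genomes (hg38 for human). The authors counted 10X UMIs with UMI-tools and Drop-seq UMIs with UMI-tools or a homotrimer script, and which of these made the deposited Drop-seq counts is not stated. The filter behind the smallest stored values is not stated either. The file of read numbers was not used.

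Transcripts were matched to GENCODE release 44 by identifier without version, which covered 92.1% to 93.5% of human counts in human cells, and summed by gene. Transcripts of 1 gene share sequence, so a read may count on several. No doublet caller was run. Shares have exact Clopper-Pearson intervals and ratios exact conditional binomial intervals, with a pseudocount of 0.5 counts. In each comparison, genes with at least 100 counts over both libraries entered, genes at 0 in 1 library included, and 2-fold was a rule of size. Values under 3 were left out of both libraries where their smallest values differed. The rule for names took the 8 genes, the 3 transcripts of each with most counts, their paralogs and pseudogenes, and of the 66 listed translation factors the most abundant and those 2-fold apart. The members and lists were chosen with earlier results of these data known. Code was tested on simulated data. Python 3.11.15, numpy 2.4.6, pandas 2.3.3, scipy 1.17.1 and matplotlib 3.10.9 were used.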

Additional observations from a re-analysis of the deposited data

Results flagged for a closer look

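From 30 to 35 cycles EEF1A1, EEF1D and TPT1 had log2 ratios of opposite sign on the platforms. EEF2, EIF4A1 and EIF4A2 had no ratio on Drop-seq. Of all genes tested, 172 of 391 had ratios above 0 on 10X and 140 of 304 on Drop-seq. How often a gene differed in sign was not counted over all genes. The difference was not tested, since each platform gave 1 library per cycle number. EEF1A1 had log2 ratios of 0.33 on 10X and -0.036 on Drop-seq, where the interval included 0 and the sign changed with the largest transcript per cell and with median-of-ratios scaling. EEF1D had 0.62 and -0.35, both with intervals that included 0, and TPT1 had 1.77, from under 100 counts, and -0.32.

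Barcodes below the number of cells in the label also held counts of the 8 genes, which no comparison above used. These came to 1795 and 3988 counts in 10X at 30 and 35 cycles (30.7% and 37.7% of all their counts) and to 8010, 1585 and 2336 counts in Drop-seq at 25, 30 and 35 cycles (79.2%, 60.6% and 61.6%). Their share of the human counts there was 1.83% and 2.37% in 10X and 1.28%, 1.63% and 1.41% in Drop-seq. EIF4A1 and EIF4A2, listed at 0 in the human cells of Drop-seq at 30 cycles, had 110 and 60 counts outside the cells, in 9 and 4 barcodes. At 35 cycles 176 of 203 counts of EIF4A1 and all 121 of EIF4A2 lay outside. TPT1 held 0.0977% of human counts outside the cells of Drop-seq at 30 cycles, against 0.247% in human cells.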

How the results depend on the processing

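The summed log2 ratio of the 8 genes kept its direction in 10X under all 11 alternatives (0.18 to 0.54) and against Drop-seq at 30 cycles under all 10 (-3.63 to -0.44). For 10X at 35 over 30 cycles it was 0.18 with values under 3 left out, 0.28 with protein coding transcripts, 0.54 with median-of-ratios scaling and 0.49 without mitochondrial and immunoglobulin counts. For Drop-seq at 35 over 30 cycles it was -0.13 at a purity of 95% and -0.13 without the 5 deepest human cells, an alternative added after the data were seen, and its sign changed with the largest transcript per cell and with median-of-ratios scaling. For Drop-seq over 10X it was -0.57 with values as stored, -0.44 with the largest transcript, -1.22 with protein coding transcripts, -3.63 with median-of-ratios scaling and -1.88 without mitochondrial and immunoglobulin counts. For Drop-seq at 30 over 25 cycles it was 0.22 on shared barcodes, -0.30 at a purity of 95%, -0.25 with the largest transcript and 0.18 with median-of-ratios scaling, so its sign depends on the setting.

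The number of human genes at least 2-fold apart moved more. In 10X it was 118, and 74 with fewer cells kept (0.5 times the labelled number), 44 with values under 3 left out, 58 with the largest transcript, 78 with protein coding transcripts, and 281 and 43 with minimums of 50 and 200 counts. In Drop-seq at 35 over 30 cycles it was 6, and 18 with cells of at least 100 counts, 3 on shared barcodes, 0 with the largest transcript, and 53 and 0 with minimums of 50 and 200. For Drop-seq over 10X it was 131, and 239 with values as stored, 63 with the largest transcript, and 298 and 64 with the 2 minimums. For Drop-seq at 30 over 25 cycles it was 55, and 5 with the largest transcript, 36 with protein coding transcripts, and 182 and 16 with the 2 minimums. Median-of-ratios scaling gave 63 genes higher and 59 lower for Drop-seq over 10X, in place of 88 and 43, and 23 and 27 in place of 17 and 38 for Drop-seq at 30 over 25 cycles. A higher minimum tests fewer genes, and otherwise the cause was not tested.

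Of 219 ratios of single genes under an alternative, 194 moved by less than their counting interval, 25 moved by more and 0 of the called ones changed sign. EEF1A1 ranged from 0.17 to 0.52 in 10X, from -4.11 to -0.98 for Drop-seq over 10X and from 0.09 to 0.61 for Drop-seq at 30 over 25 cycles. EEF1G ranged from 0.69 to 1.78 in 10X and from -2.63 to -0.34 for Drop-seq at 30 over 25 cycles. EEF1B2 for Drop-seq over 10X ranged from -2.36 to 1.14, and TPT1 for Drop-seq at 30 over 25 cycles from -0.33 to 1.04. Of 38 isoform shares 34 moved by less than their interval. No paired analysis was possible because each group was 1 library. Genes other than EEF1A1 rested on 0 to 279 counts per library, and values under the smallest stored one could not be seen.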
